A study of Mus musculus with 8 samples.

Results

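The genes described here encode the kinases and adaptors that act directly below the T cell receptor: Lck, Fyn, Zap70, Lat, Lcp2, Plcg1, Vav1, Prkcq and Themis. They were chosen by symbol, and all 9 had a row among the 23746 rows of each deposited gene table. All 9 were also among the 9782 genes kept by the filter on low values (1 FPKM or more in 2 or more libraries). FPKM is a level scaled by transcript length and library total, so levels of different genes can be set side by side. The libraries came from BALB/c mice and held CD8+ T cells that bind the AH1 tetramer, a reagent carrying a peptide of a murine leukaemia virus envelope protein found on tumour lines of this strain. The 4 groups, of 2 libraries each, were Cd69-/- cells of the subset labelled term diff (term-diff below), Cd69-/- stem-like cells, wild-type term-diff cells and wild-type stem-like cells. The tetramer and the BALB/c background were common to all groups. Neither the tumour, the sort gates, the making of the Cd69 allele nor the age, sex and number of the mice is given by the labels, which also leave out whether libraries came from separate mice. P-values therefore measure the spread between these libraries, which may be technical in part.

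When the receptor binds peptide on MHC, the Src-family kinases Lck and Fyn phosphorylate its signalling chains, and Zap70 docks on the phosphorylated chains. Zap70 then phosphorylates the membrane scaffold Lat and the cytosolic scaffold SLP-76, the product of Lcp2, which together gather the phospholipase Plcg1 and the exchange factor Vav1. Plcg1 makes the second messengers that release calcium and recruit the kinase PKC-theta, the product of Prkcq, and Themis is an adaptor that T cells need during selection in the thymus. In tumours, CD8+ T cells under lasting receptor stimulation divide into stem-like cells, which hold the transcription factor Tcf7, and more differentiated cells with inhibitory receptors such as Havcr2.

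The labels were checked first. Cd69 was at 2.21 and 2.43 FPKM in Cd69-/- term-diff libraries and 3.69 and 2.42 FPKM in Cd69-/- stem-like libraries, against 10.4 and 12.9 FPKM in wild-type term-diff libraries and 22.5 and 23.4 FPKM in wild-type stem-like libraries. Each Cd69-/- library was below each wild-type library, although some signal remained. Tcf7 was at 0.228 to 0.755 FPKM in the 4 term-diff libraries and 40.6 to 64.2 FPKM in the 4 stem-like libraries, and Havcr2 at 23.3 to 39.7 FPKM in term-diff and 0.847 to 2.29 FPKM in stem-like libraries. All 8 CD8 T cell markers listed for the check reached 1 FPKM in every library. No B cell or neutrophil marker reached 1 FPKM in both libraries of any group. Summed myeloid markers, mostly Cst3, were at 19.5 to 30.7 FPKM in term-diff libraries and 38.3 to 56.4 FPKM in stem-like libraries, and summed NK markers, mostly Klre1, were at 27.6 to 37.1 FPKM in term-diff and 15.2 to 23.1 FPKM in stem-like libraries. In the other lists, summed CD4 and regulatory T cell markers were at 5.35 to 7.55 FPKM in term-diff and 8.40 to 10.6 FPKM in stem-like libraries, tumour and stroma markers at 4.86 to 7.08 FPKM and 11.4 to 14.9 FPKM, and erythroid markers at 1.01 to 1.57 FPKM and 0.587 to 0.848 FPKM, term-diff first in each pair. C1qa was at 0 in both wild-type stem-like libraries, Klra8 at 0 in all Cd69-/- libraries, and Krt8 or Col3a1 at 0 in each group. Cd79a and Cd79b were at 0 in wild-type term-diff libraries, Pax5 in Cd69-/- stem-like libraries, S100a8 or S100a9 in both libraries of every group, and Hba-a1 and Hba-a2 in all wild-type libraries. The part of these markers in the results below was not tested. The deposited FPKM summed to 282588.6 and 341256.6 in the wild-type libraries numbered 2 (term-diff first), below the 567545.4 to 919280.3 of the other 6 libraries. Their scaling factors by median of ratios did not stand apart in this way, at 1.051 and 1.006, beside 0.94 to 1.038 in the other 6.

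Between the subsets, 3 of the 9 genes passed the test when the difference was averaged over the genotypes: Themis was higher in term-diff cells, and Fyn and Lcp2 were lower. The kinases Lck and Zap70 and the scaffold Lat, which stand with them at the top of the pathway, did not pass. Fyn fell by 0.60 ± 0.11 on the log2 scale, Lcp2 fell by 0.42 ± 0.09 and Themis rose by 0.50 ± 0.08 (difference of log2(FPKM + 1), term-diff minus stem-like, ± SE). Among all genes tested 20.5% were called in this comparison, 10.5% as higher and 9.93% as lower, against which the 3 of 9 is to be read. The 4 term-diff and 4 stem-like libraries did not overlap for 4 of the 9 genes (Lck, Fyn, Lcp2 and Themis), and for 21.9% of all genes. In these bulk libraries, fewer cells of a type and less RNA per cell cannot be told apart.

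**Figure D1:**
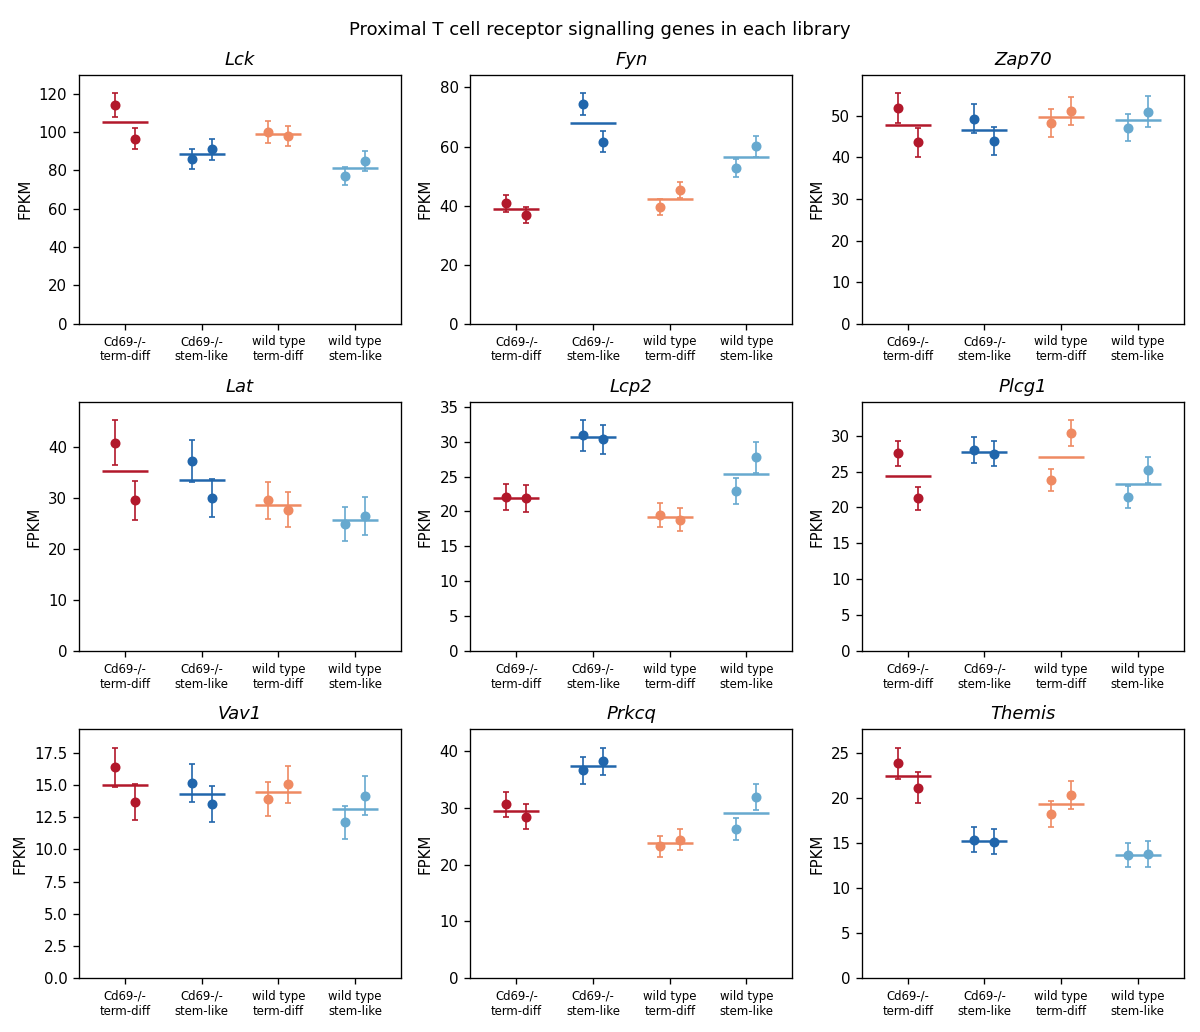
Level in FPKM (y axis, from 0) of each of the 9 genes in each of the 8 libraries, by group; points are libraries, horizontal bars are group means, and whiskers are the deposited confidence limits of each FPKM, which hold no variation between mice. Fyn and Lcp2 lie lower in the 4 term-diff libraries than in the 4 stem-like libraries, Lck and Themis lie higher, and Zap70 overlaps throughout.

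Lck, the kinase that starts phosphorylation of the receptor chains and that the coreceptor CD8 brings to the receptor, was the most abundant of the 9 in every group. It was at 114 and 96.6 FPKM in Cd69-/- term-diff libraries, against 85.9 and 91.0 FPKM in Cd69-/- stem-like libraries. In wild type it was at 100.1 and 97.8 FPKM in term-diff libraries, against 77.2 and 84.9 FPKM in stem-like libraries. The 4 term-diff libraries lay above the 4 stem-like libraries without overlap. The averaged difference of 0.27 ± 0.10 (95% interval 0.03 to 0.50) nevertheless did not pass after adjustment over all genes (adjusted p = 0.111), and it was 0.05 after quantile normalization. Lck is transcribed from a distal and a proximal promoter, and the gene-level FPKM sums transcripts of both.

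Fyn, the second Src-family kinase of T cells, went the other way. It was at 40.8 and 36.8 FPKM in Cd69-/- term-diff libraries, against 74.3 and 61.7 FPKM in Cd69-/- stem-like libraries. Wild-type cells had 39.5 and 45.2 FPKM in term-diff libraries, against 52.7 and 60.1 FPKM in stem-like libraries. Every term-diff library was below every stem-like library. The averaged fall passed (adjusted p = 0.00573, 95% interval -0.84 to -0.35), with adjusted p from 0.00303 to 0.0273 over 17 alternatives. Within Cd69-/- cells the fall of 0.79 ± 0.15 passed (adjusted p = 0.0156), but not without stem-like replicate 1 (adjusted p = 0.128) or with either term-diff library left out (adjusted p = 0.0596 for replicate 1 and 0.104 for replicate 2). Within wild type the difference of -0.40 ± 0.15 did not pass (adjusted p = 0.122). It passed under median-of-ratios scaling (-0.48, adjusted p = 0.0465) and under quantile normalization (-0.65, adjusted p = 0.049). The difference between the genotypes in this fall was itself tested and did not pass (-0.38, 95% interval -0.88 to 0.11, adjusted p = 0.565).

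Because Lck and Fyn share substrates, their ratio within each library is of interest, and it does not depend on how a library is scaled. The level of Lck was 2.80 and 2.62 times that of Fyn in Cd69-/- term-diff libraries, against 1.16 and 1.48 times in Cd69-/- stem-like libraries. In wild type it was 2.53 and 2.16 times that of Fyn in term-diff libraries, against 1.47 and 1.41 times in stem-like libraries. The 4 term-diff ratios all exceeded the 4 stem-like ratios, which follows from Lck being higher and Fyn lower in every term-diff library. On the log2 scale the mean ratio was 1.44 ± 0.07 in Cd69-/- term-diff, 0.39 ± 0.25 in Cd69-/- stem-like, 1.23 ± 0.16 in wild-type term-diff and 0.52 ± 0.04 in wild-type stem-like cells (SD, n = 2 each), given as a description without a test.

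Zap70, the kinase that docks on the receptor chains, had the narrowest range of the 9. It was at 51.8 and 43.5 FPKM in Cd69-/- term-diff libraries, against 49.3 and 43.9 FPKM in Cd69-/- stem-like libraries. Among wild-type libraries it was at 48.2 and 51.1 FPKM in term-diff libraries, against 47.1 and 50.9 FPKM in stem-like libraries. Its highest library was 1.19 times its lowest, against 2.02 times for Fyn. The averaged difference between subsets was 0.02 (95% interval -0.20 to 0.25, adjusted p = 0.891), and its sign turned after quantile normalization (-0.16). Syk, the relative of Zap70 that B cells use, was at 0.0949 to 0.271 FPKM over the 8 libraries.

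Lat, the membrane scaffold, was at 40.8 and 29.5 FPKM in Cd69-/- term-diff libraries, against 37.1 and 29.9 FPKM in Cd69-/- stem-like libraries. Wild-type cells had 29.4 and 27.7 FPKM in term-diff libraries, against 24.8 and 26.4 FPKM in stem-like libraries. The subsets overlapped, and the averaged difference of 0.10 (95% interval -0.18 to 0.39) did not pass (adjusted p = 0.609).

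Lcp2, which encodes the scaffold SLP-76 that works beside Lat, differed between the subsets where Lat did not pass. It was at 22.1 and 21.9 FPKM in Cd69-/- term-diff libraries, against 30.9 and 30.3 FPKM in Cd69-/- stem-like libraries. In wild type it was at 19.5 and 18.8 FPKM in term-diff libraries, against 22.9 and 27.7 FPKM in stem-like libraries. No term-diff library reached the lowest stem-like library. The averaged fall passed (adjusted p = 0.0116), with adjusted p from 0.00483 to 0.074 over 17 alternatives, and did not pass without both wild-type libraries numbered 2 (-0.34, adjusted p = 0.074). Neither genotype passed alone (-0.46, adjusted p = 0.0559 in Cd69-/- and -0.38, adjusted p = 0.0869 in wild type). Wild type did pass under median-of-ratios scaling (adjusted p = 0.0311) and quantile normalization (adjusted p = 0.0283), and Cd69-/- in 4 of 19 alternatives (adjusted p from 0.0411 to 0.0458). Within each library, the level of Lcp2 was 0.541 and 0.743 times that of Lat in Cd69-/- term-diff, against 0.832 and 1.01 times in Cd69-/- stem-like libraries. In wild type it was 0.662 and 0.680 times that of Lat in term-diff, against 0.922 and 1.05 times in stem-like libraries, so these ratios did not overlap between the subsets.

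Themis, the adaptor that binds Grb2 and the phosphatase SHP-1, was the only member of the group that passed as higher in term-diff cells. It was at 23.8 and 21.1 FPKM in Cd69-/- term-diff libraries, against 15.4 and 15.1 FPKM in Cd69-/- stem-like libraries. Wild-type cells had 18.2 and 20.4 FPKM in term-diff libraries, against 13.6 and 13.8 FPKM in stem-like libraries. Each term-diff library was above each stem-like library. The averaged rise passed (adjusted p = 0.004, 95% interval 0.31 to 0.68), and passed in all 17 alternatives (adjusted p from 0.00166 to 0.0357). It also passed within Cd69-/- (0.53 ± 0.12, adjusted p = 0.0274) and within wild type (0.46 ± 0.12, adjusted p = 0.0359). Both of those calls ended on leaving out any 1 of the 4 libraries compared (adjusted p from 0.0665 to 0.146 in Cd69-/- and from 0.0714 to 0.178 in wild type). The wild-type call also ended when either Cd69-/- stem-like library was left out (adjusted p = 0.065 for replicate 1 and 0.0641 for replicate 2), which enter through the shared estimate of the spread. It ended as well under quantile normalization (0.36, adjusted p = 0.0592), in a fit of just the 2 groups compared (adjusted p = 0.0798) and without both wild-type libraries numbered 2 (adjusted p = 0.276). With no filter both calls ended (adjusted p = 0.0506 in Cd69-/- and 0.062 in wild type). A block on the replicate number also ended both (adjusted p = 0.0544 in Cd69-/- and 0.0666 in wild type). Within Cd69-/- cells 2 of the 9 genes passed, 1 higher and 1 lower (9.45% of all genes, 3.88% higher and 5.56% lower). Within wild type 1 of 9 passed, and was higher (13.1% of all genes, 7.24% higher).

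The sequences around the starts of the 3 genes that passed are shown because their transcripts differed between the subsets. They are RefSeq promoter windows on GRCm38.p6, the assembly of the files' build mm10, and run from 250 bases before a start to 50 bases from it. Capitals mark matches on either strand to a TCF/LEF motif (CTTTG and then AA, AT, TA or TT, the kind of site Tcf7 binds), to a RUNX motif (TGTGGT) and to an ETS motif (CGGAAG or AGGAAG).
Fyn, chr10:39369549-39369848, plus strand: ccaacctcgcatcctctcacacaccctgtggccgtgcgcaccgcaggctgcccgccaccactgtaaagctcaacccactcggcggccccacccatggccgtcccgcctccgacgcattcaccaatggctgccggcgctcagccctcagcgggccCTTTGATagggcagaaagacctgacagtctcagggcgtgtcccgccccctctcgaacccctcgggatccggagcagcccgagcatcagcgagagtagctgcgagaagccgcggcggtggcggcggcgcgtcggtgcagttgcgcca
Lcp2, chr11:34046678-34046977, plus strand: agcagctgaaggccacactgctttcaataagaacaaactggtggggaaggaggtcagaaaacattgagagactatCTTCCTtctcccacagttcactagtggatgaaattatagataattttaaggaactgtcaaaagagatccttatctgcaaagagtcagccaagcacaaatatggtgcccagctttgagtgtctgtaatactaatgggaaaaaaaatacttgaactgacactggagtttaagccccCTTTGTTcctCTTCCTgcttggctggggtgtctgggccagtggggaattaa
Themis, chr10:28668145-28668444, plus strand: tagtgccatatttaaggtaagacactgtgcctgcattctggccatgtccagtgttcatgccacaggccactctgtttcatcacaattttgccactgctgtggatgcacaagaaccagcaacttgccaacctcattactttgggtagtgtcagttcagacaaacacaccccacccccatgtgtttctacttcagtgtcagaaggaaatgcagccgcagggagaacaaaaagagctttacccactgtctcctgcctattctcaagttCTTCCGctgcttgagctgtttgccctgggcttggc
The Fyn window held 1 TCF/LEF match (CTTTGAT), 96 bases upstream of the start. The Lcp2 window held 1 TCF/LEF match (CTTTGTT), beginning 1 base upstream of the start, and 2 ETS matches. The Themis window shown held 1 ETS match and no TCF/LEF match. Another Themis window, whose start lies at -35 bases from the edge of the deposited locus, held no match to any of these motifs. Of all 32851 windows of this length 16.9% held a TCF/LEF match, 16.8% a RUNX match and 46.5% an ETS match, so these matches are a description of the letters. None of the marked matches overlap one another. The RefSeq start of Lcp2 lies at -273 bases, that is upstream, of the edge of the deposited locus, while those of Fyn and of the Themis window shown fall on that edge. All 9 genes had at least 1 window, 13 in all, and a TCF/LEF match was present for 3 of the genes, Fyn, Lcp2 and, at its internal start, Lck. A RUNX match was likewise present for 3 of the genes and an ETS match for 7. These counts are per gene, and some genes have several windows. The shares over all windows are per window, so they are not a like measure for these counts.

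Among the enzymes and exchange factors gathered by the scaffolds, Prkcq came closest to the threshold. Prkcq was at 30.6 and 28.5 FPKM in Cd69-/- term-diff libraries, against 36.6 and 38.2 FPKM in Cd69-/- stem-like libraries. Among wild-type libraries it was at 23.2 and 24.4 FPKM in term-diff libraries, against 26.3 and 31.9 FPKM in stem-like libraries. Within each genotype its term-diff libraries lay below its stem-like libraries, as 32.4% of all genes did in Cd69-/- and 21.8% in wild type, although the subsets overlapped over all 8 libraries. Its averaged difference of -0.30 ± 0.09 had adjusted p = 0.0508 and passed in 4 of 17 alternatives, among them median-of-ratios scaling (adjusted p = 0.0173), with a range of 0.00994 to 0.173.

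Plcg1, the phospholipase, was at 27.6 and 21.3 FPKM in Cd69-/- term-diff libraries, against 28.0 and 27.5 FPKM in Cd69-/- stem-like libraries. In wild type it was at 23.8 and 30.3 FPKM in term-diff libraries, against 21.4 and 25.2 FPKM in stem-like libraries. The averaged difference was 0.01 (95% interval -0.27 to 0.28, adjusted p = 0.973), and its sign turned after quantile normalization (-0.09). Its differences had opposite signs in Cd69-/- (-0.19) and wild type (0.20), with libraries overlapping in each. The test of that contrast did not pass (-0.39, 95% interval -0.94 to 0.16, adjusted p = 0.588). Plcg2, the relative used by B cells, was at 0.424 to 0.884 FPKM.

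Vav1, the guanine nucleotide exchange factor, had the lowest mean of the 9 in each group. It was at 16.4 and 13.6 FPKM in Cd69-/- term-diff libraries, against 15.1 and 13.5 FPKM in Cd69-/- stem-like libraries. Among wild-type libraries it was at 13.9 and 15.1 FPKM in term-diff libraries, against 12.1 and 14.2 FPKM in stem-like libraries. The averaged difference of 0.10 (95% interval -0.13 to 0.32) did not pass (adjusted p = 0.539), and the libraries of the subsets overlapped.

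**Figure D2:**
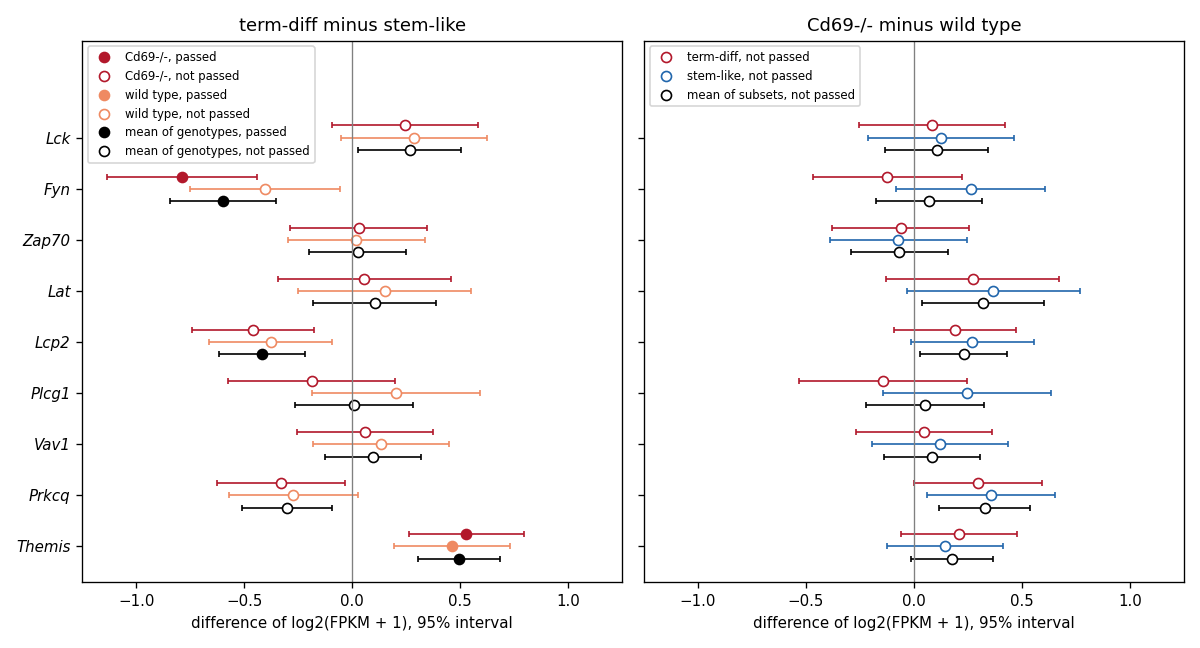
Differences of log2(FPKM + 1) (x axis) with their 95% intervals for each gene, term-diff minus stem-like on the left and Cd69-/- minus wild type on the right; filled points passed the test after adjustment over all genes. On the left Themis is filled in Cd69-/-, wild type and their mean, Fyn in Cd69-/- and the mean, and Lcp2 in the mean; on the right no point is filled.

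By level, the order of the 9 genes changed between the subsets at its top. Lck came first in each group. Next came Zap70 and then Fyn in Cd69-/- and wild-type term-diff cells, but Fyn and then Zap70 in Cd69-/- and wild-type stem-like cells, with libraries of the 2 genes not overlapping in any group. Lower in the order, Prkcq and Lat overlapped in every group in which they were neighbours, as did Themis and Vav1 in stem-like cells and Themis and Lcp2 in term-diff cells. Fyn averaged 38.8 ± 2.76 FPKM and Zap70 47.7 ± 5.86 FPKM in Cd69-/- term-diff cells, against 68.0 ± 8.96 FPKM for Fyn and 46.6 ± 3.81 FPKM for Zap70 in Cd69-/- stem-like cells (SD, n = 2 each).

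**Figure D3:**
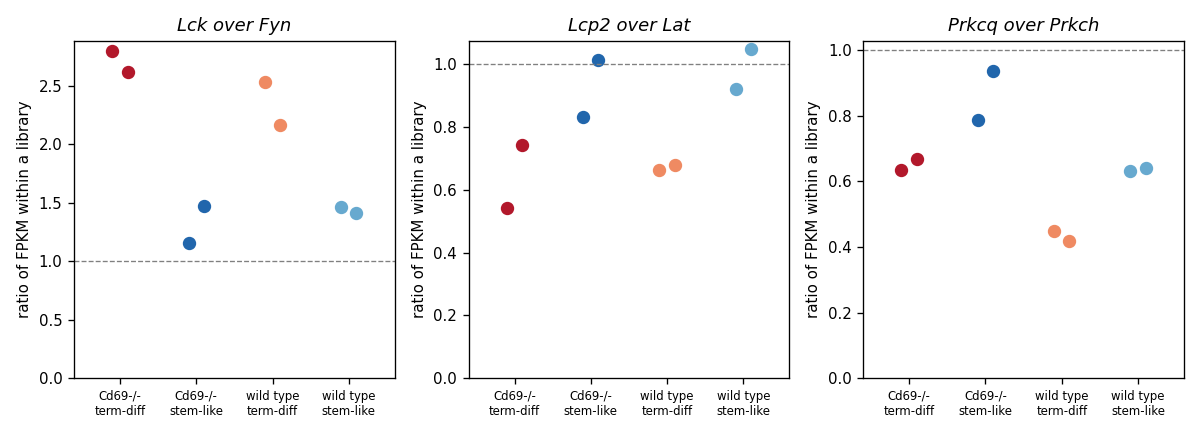
Ratio of the FPKM of 2 genes within each library (y axis, from 0; dashed line at 1) for Lck over Fyn, Lcp2 over Lat and Prkcq over Prkch, by group, with a point for each library. Lck over Fyn lies between 2.16 and 2.80 in term-diff and between 1.16 and 1.48 in stem-like libraries, and Lcp2 over Lat is lower in each term-diff library than in each stem-like library.

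Between the genotypes, none of the 9 genes passed limma's test in stem-like cells (0.153% of all genes were called), in term-diff cells (0.194%) or averaged over the subsets (0.542%). At an unadjusted p under 0.05 the counts were 1, 1 and 3 of 9, beside 7.26%, 15.1% and 12.4% of all genes. Those were Prkcq in each subset, and Prkcq, Lat and Lcp2 in the average. Prkcq had the smallest p of the 9 in each of these comparisons: its 30.6 and 28.5 FPKM in Cd69-/- term-diff libraries stood against 23.2 and 24.4 FPKM in wild type, and its 36.6 and 38.2 FPKM in Cd69-/- stem-like libraries against 26.3 and 31.9 FPKM in wild type. The averaged difference was 0.33 ± 0.09 (95% interval 0.12 to 0.54, adjusted p = 0.224). Prkcq was higher in each Cd69-/- library than in each wild-type library of the same subset, and so were Lat, Lcp2 and Themis. Lck, Fyn and Plcg1 were so in stem-like cells only. Of all genes, 19.7% lay higher in this way in term-diff and 26.3% in stem-like cells. Differences were above 0 for 8 of the 9 in stem-like cells (62.6% of all genes) and 6 of 9 in term-diff cells (42.0%). In the average 8 of 9 were above 0 (50.4%). Lat, with an averaged difference of 0.32 (95% interval 0.04 to 0.60, adjusted p = 0.357), was the single member whose 4 Cd69-/- libraries all lay above the 4 wild-type libraries although the nearest pair, at 29.5 FPKM in a Cd69-/- and 29.4 FPKM in a wild-type library, was all but tied. Of all genes 3.07% did not overlap in either direction, and 1.75% lay higher in Cd69-/-. Lcp2 differed by 0.23 (95% interval 0.03 to 0.43, adjusted p = 0.352). Summed CD8 T cell markers (Cd3d, Cd3e, Cd3g, Cd247, Cd8a, Cd8b1, Cd2 and Thy1), 6 of which are receptor chains or coreceptors described further on, also stood apart between the genotypes, at 1336 to 1501 FPKM in Cd69-/- term-diff and 1164 to 1204 FPKM in Cd69-/- stem-like libraries, against 983 to 1044 FPKM in wild-type term-diff and 987 to 1142 FPKM in wild-type stem-like libraries, and their part in these differences was not tested.

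The other 6 genes had averaged genotype differences from -0.07 for Zap70 (95% interval -0.29 to 0.16) to 0.18 for Themis (95% interval -0.01 to 0.37). Lck was at 0.11 (95% interval -0.13 to 0.34) and turned to -0.12 after quantile normalization, and Fyn was at 0.07 (95% interval -0.18 to 0.31) and turned to -0.05. Plcg1 was at 0.05 (95% interval -0.22 to 0.33) and Vav1 at 0.08 (95% interval -0.14 to 0.31). The interaction, which asks whether Cd69-/- and wild type differ more in one subset than in the other (term-diff minus stem-like), passed for 0 of the 9 (0.0307% of all genes), and 0 had an unadjusted p under 0.05 (9.09% of all genes). The subset comparisons within Cd69-/- and within wild type share no library, and the genotype comparisons likewise, but each genotype comparison shares its libraries with both subset comparisons.

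In each list of other receptor pathway genes given here, most genes tested did not pass. Unless a genotype comparison is named, counts here are for term-diff minus stem-like averaged over the genotypes, with the median of the differences. Over all genes 20.5% were called and the median was 0.02. Among the 7 receptor chains and coreceptors (Cd3d, Cd3e, Cd3g, Cd247, Cd8a, Cd8b1 and Cd4) 0 passed limma's test, 0 had an unadjusted p under 0.05 (33.9% of all genes), and the median was -0.02. Between the genotypes 0 of the 7 passed, but in term-diff cells all 7 differences were above 0 (42.0% of all genes), with a median of 0.63 against -0.05 over all genes, and 4 had an unadjusted p under 0.05 (15.1% of all genes). That median was 0.09 after quantile normalization. Those 4, named after their values were seen, were Cd3d (39.7 and 37.0 FPKM in Cd69-/- term-diff libraries, against 23.0 and 18.5 FPKM in wild type), Cd3g (605 and 576 FPKM against 422 and 346 FPKM), Cd247 (60.2 and 49.4 FPKM against 32.0 and 35.9 FPKM) and Cd8b1 (167 and 139 FPKM against 88.5 and 76.1 FPKM), with adjusted p from 0.0706 to 0.284. For the lists given below, the Cd69-/- minus wild-type medians in term-diff cells were lower. They were -0.07 for other proximal kinases and adaptors, -0.04 for proximal inhibitors, 0.05 for the calcium branch and -0.17 for relatives of the 9. Differences above 0 numbered 9 of 23, 7 of 20, 6 of 11 and 4 of 11, in that order. Cd3e, a signalling chain of the receptor, was at 220 and 204 FPKM in Cd69-/- term-diff, 234 and 209.8 in Cd69-/- stem-like, 196 and 212 in wild-type term-diff and 184 and 232 FPKM in wild-type stem-like libraries.

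**Figure D4:**
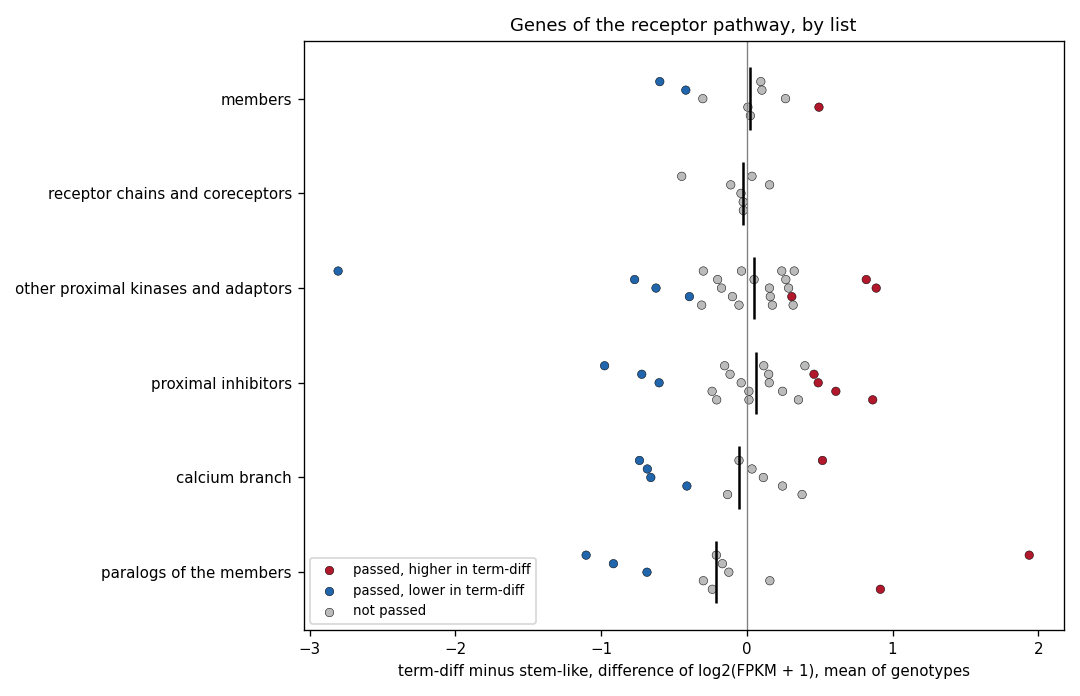
Difference of log2(FPKM + 1) between term-diff and stem-like cells, averaged over the genotypes (x axis), for each tested gene of 6 lists; each point is a gene, colour marks genes that passed, and the black line is the list's median. Points that passed lie on both sides of 0 in most lists, with Tespa1 at -2.80 and Lat2 at 1.94 farthest out.

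Of 23 other proximal kinases and adaptors tested, 3 rose and 4 fell (median 0.05, which was -0.0013 after quantile normalization). Sh2d2a, the adaptor TSAd that binds Lck, rose by 0.89, to 52.3 and 45.5 FPKM in Cd69-/- term-diff and 60.1 and 66.0 FPKM in wild-type term-diff libraries, against 28.8 and 26.7 FPKM in Cd69-/- stem-like and 27.9 and 35.2 FPKM in wild-type stem-like libraries. Txk, a Tec-family kinase, rose by 0.82 and Was, a regulator of actin, by 0.31. Tespa1, an adaptor needed in thymocyte selection, as Themis is, fell by 2.80. It was at 1.17 and 1.37 FPKM in Cd69-/- term-diff and 1.26 and 1.10 FPKM in wild-type term-diff libraries, against 14.1 and 16.2 FPKM in Cd69-/- stem-like and 14.4 and 13.6 FPKM in wild-type stem-like libraries. The 2 adaptors of thymic selection thus lay on opposite sides of 0. The adaptor Nck2 fell by 0.77, the WASP partner Wipf1 fell by 0.62 and the costimulatory receptor Cd28 fell by 0.39. The size of the Nck2 difference depended on the processing, from -1.08 to -0.34 over 16 alternatives. The call of Cd28 ended on leaving out any 1 of 6 libraries, all but wild-type stem-like replicate 1 and Cd69-/- term-diff replicate 1 (adjusted p up to 0.152 over all alternatives). That of Was ended on leaving out any 1 of 7, all but Cd69-/- term-diff replicate 2. Both calls also ended with no filter (adjusted p = 0.0779 for Cd28 and 0.0582 for Was). A block on the replicate number ended them too (adjusted p = 0.0566 for Cd28 and 0.0579 for Was), as did leaving out both wild-type libraries numbered 2.

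Among 20 genes listed as proximal inhibitors 4 rose and 3 fell (median 0.07, which was -0.06 after quantile normalization). Whether each of them inhibits receptor signalling in these cells was not tested. The rises were Sla2 (0.86), an adaptor that restrains receptor signalling, the adaptors Dok2 (0.61) and Lime1 (0.49), and the phosphatase Ptpn7 (0.46), whose call ended without both wild-type libraries numbered 2 (adjusted p = 0.0551). The falls were the diacylglycerol kinase Dgka (-0.98), which ends the second messenger that Plcg1 makes, its relative Dgkz (-0.60) and the adaptor Sla (-0.72). Dgka was at 33.9 and 31.0 FPKM in Cd69-/- term-diff and 26.1 and 24.9 FPKM in wild-type term-diff libraries, against 64.6 and 56.6 FPKM in Cd69-/- stem-like and 54.7 and 54.7 FPKM in wild-type stem-like libraries. The related adaptors Sla and Sla2 thus differed in opposite directions.

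Farther down the pathway, in the calcium branch, which opens below Plcg1, 1 of 11 rose and 4 fell (median -0.05). The rise was the calcium release channel Itpr3 (0.52), and the falls were its relatives Itpr1 (-0.74) and Itpr2 (-0.41), the calcium sensor Stim2 (-0.68) and the channel subunit Orai2 (-0.66). The Itpr2 call was lost when any of 4 libraries was left out, namely wild-type stem-like replicate 2, Cd69-/- stem-like replicate 1, wild-type term-diff replicate 1 or Cd69-/- term-diff replicate 2. It was also lost with no filter. Without both wild-type libraries numbered 2, the calls of Itpr2 and Orai2 were both lost.

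Relatives of the 9 genes showed which family members these cells transcribe. Of 20 relatives with a row, 9 did not reach the filter (at most 0.884 FPKM), among them the kinases Fgr and Blk and the adaptor Blnk. Of the 11 tested, 2 rose and 3 fell (median -0.21). Lat2, a scaffold related in build to Lat, rose by 1.94: it was at 20.1 and 18.3 FPKM in Cd69-/- term-diff and 12.6 and 19.8 FPKM in wild-type term-diff libraries, against 3.30 and 4.65 FPKM in Cd69-/- stem-like and 4.02 and 3.37 FPKM in wild-type stem-like libraries. Lyn, a Src-family kinase, rose by 0.92 and was at 2.36 to 4.58 FPKM in term-diff libraries, against 1.11 to 1.89 FPKM in stem-like libraries. The relatives of Vav1 fell, Vav2 by 1.10 and Vav3 by 0.68, where Vav1 itself did not pass. Vav2 was low, at 0.338 to 2.36 FPKM over the 8 libraries, and its difference ran from -2.04 to -0.38 over the alternatives. The kinase Prkca fell by 0.92, to 7.61 and 7.49 FPKM in Cd69-/- term-diff and 7.10 and 7.76 FPKM in wild-type term-diff libraries, against 15.8 and 15.9 FPKM in Cd69-/- stem-like and 13.5 and 14.9 FPKM in wild-type stem-like libraries. Prkch, another kinase of the PKC family, exceeded Prkcq in every library. Prkcq was at 0.636 and 0.669 times the level of Prkch in Cd69-/- term-diff, 0.788 and 0.935 times in Cd69-/- stem-like, 0.450 and 0.418 times in wild-type term-diff and 0.631 and 0.640 times in wild-type stem-like libraries.

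Over the 8 libraries, the genes whose pattern was most like that of Fyn were Wipf1, Lrch1 and Lclat1, out of 4874 named genes whose highest group mean reached 5 FPKM. Likeness was the root mean square difference of log2(FPKM + 1) after centring each gene on its own mean, and it was 0.045 for Wipf1, 0.085 for Lrch1 and 0.086 for Lclat1. Wipf1 was at 27.6 and 24.9 FPKM in Cd69-/- term-diff and 49.7 and 40.5 FPKM in Cd69-/- stem-like libraries, and at 25.8 and 30.7 FPKM in wild-type term-diff and 36.5 and 43.9 FPKM in wild-type stem-like libraries. Nearest to Lcp2 were Mfsd6 (0.049), Rassf5 (0.074) and Slc4a7 (0.074). Nearest to Themis were Ctsb (0.061), Gbp4 (0.067) and the integrin chain Itgb2 (0.069), which was at 117 and 108 FPKM in Cd69-/- term-diff and 97.5 and 96.9 FPKM in wild-type term-diff libraries, against 70.2 and 75.4 FPKM in Cd69-/- stem-like and 65.1 and 69.4 FPKM in wild-type stem-like libraries.

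The values rest on moderate numbers of fragments. The deposited confidence limits imply 200 to 357 fragments per library for Lat, the fewest of the 9, and 807 to 1597 for Fyn, and libraries held 2055402 to 2591061 implied fragments in all. On the genome (mm10), Fyn lies at chr10:39369799-39565374, Lcp2 at chr11:34047201-34092280 and Themis at chr10:28668395-28882749, all on the plus strand. In GENCODE M21 the exons of Fyn, Zap70, Vav1 and Prkcq share no base with another gene's exons. Lcp2 shares 282 bases with an opposite-strand gene, Themis 153 and Plcg1 627, and Lck shares 25 and Lat 75 with a microRNA gene on its own strand. The kit marks strand, but the strand setting used for the FPKM is not given in the sources used here, so reads of opposite-strand partners cannot be told apart in those stretches.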

How the data were processed

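For each library the authors deposited 1 gene table, with expression in FPKM and the limits of its confidence interval in the same unit, per the file headers. Per the labels, libraries were made from total RNA with a stranded low-input kit, and a NextSeq500 gave single-end reads. Cufflinks 2.2.1, TopHat 1.3.2, Bowtie2 2.3.4, bcl2fastq 2.20 and the build mm10 are named per the submitters' processing notes. The role of each tool, the annotation and the FPKM total are not given in the sources used here.

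Values were used as deposited, as log2(FPKM + 1), so fold changes of low genes are understated. Of 23746 rows, 3 genes with a status other than OK were left out, and the 9782 that reached 1 FPKM in 2 or more libraries were tested with limma 3.58.1 in R 4.3.3. The model held 4 group means with a trended empirical Bayes prior, with 4 degrees of freedom left for the spread and 4.2 from the prior. P-values were 2-sided, with Benjamini-Hochberg adjustment over the 9782 genes and a threshold of 0.05. With 2 libraries a group, an exact permutation test could not pass the threshold and none was run.

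Fragments were implied from the width of the deposited interval as the square of 2 times the FPKM over the distance to its upper limit. In each library 69.4% to 70.0% of the rows with under 15 such fragments came out whole (to 0.05), too few to recover reads, so no count test was run. They cover counting error only.

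The 9 genes, the lists and the tests were chosen with earlier results of these data known. Some further genes and lists are not reported here. Genes named beyond the 9 were, per list, up to 4 rises and 4 falls past the threshold in the averaged subset comparison, plus the 3 nearest in pattern to each member called there. Cd3d, Cd3g, Cd247 and Cd8b1 were named for an unadjusted p under 0.05 between the genotypes in term-diff cells, after their values were seen. Cd3e, Prkch, Syk and Plcg2 and the untested relatives were named for levels. Fyb1 and Themis2 of the lists, and the markers Adgre1, Hbb-bs and Hbb-bt, had no row under those symbols. Alternatives were other pseudocounts (0.1 and 5), no filter or at least 5 FPKM, median-of-ratios and quantile scaling, no trend, a block on the replicate number, fits of just the groups compared, and leaving out each library. Leaving out both wild-type libraries numbered 2, which had the lowest summed FPKM, and a crossed block were chosen after seeing the data.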

Additional observations from a re-analysis of the deposited data

How the results depend on the processing

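The averaged subset calls of Fyn and Themis passed in all 17 alternatives and that of Lcp2 in 16, and the count of the 9 genes called there ran from 2 to 4. No alternative called any of the 9 between the genotypes or in the interaction. Within Cd69-/- the count of 2 became 1 with no filter and 1 with the replicate block, and 0 to 3 on leaving out 1 library. Within wild type the count of 1 became 0 with no filter, 0 with the replicate block, 0 without both wild-type libraries numbered 2, 0 with only the 2 groups compared, 3 under median-of-ratios scaling, 2 under quantile normalization (Fyn and Lcp2, with Themis lost), and 0 to 1 on leaving out 1 library.

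Deviations of libraries with the same number correlated between groups at -0.297 to 0.152, with the highest between the wild-type subsets. With 2 libraries a group, these correlations cannot tell whether libraries of the same number share a mouse or a batch. Because the correlation between the Cd69-/- subsets was -0.157, the crossed block was tried there: it called 2 of the 9 and 848 genes in all.

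Over all genes, counts were as follows. Within Cd69-/-, 924 became 545 with no filter and 287 to 900 on leaving out 1 library. Within wild type, 1278 became 752 with no filter, 362 without both wild-type libraries numbered 2 and 620 to 1110 on leaving out 1 library. Averaged, 2001 became 1310 at a minimum of 5 FPKM, 1307 without both wild-type libraries numbered 2 and 1280 to 1634 on leaving out 1 library. Between genotypes in stem-like cells, 15 became 5 at a pseudocount of 0.1, 4 with no filter, 9 at 5 FPKM, 8 with the replicate block and 4 to 16 on leaving out 1 library. In term-diff cells, 19 became 11 with no filter, 3 at 5 FPKM, 9 after quantile normalization, 6 with the replicate block, 51 with only the 2 groups compared and 3 to 23 on leaving out 1 library. Averaged over the subsets, 53 became 13 with no filter, 34 at 5 FPKM, 29 without both wild-type libraries numbered 2 and 18 to 65 on leaving out 1 library. For the interaction, 3 became 8 at a pseudocount of 5, 17 without both wild-type libraries numbered 2 and 2 to 9 on leaving out 1 library. The cause of these changes was not tested.

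Every reversal was of a difference that had not passed. After quantile normalization the subset difference became -0.089 for Lck, -0.14 for Zap70 and -0.060 for Lat in Cd69-/-, -0.18 for Zap70 in wild type, and -0.16 for Zap70, -0.030 for Lat and -0.088 for Plcg1 in the average. The genotype difference became -0.26 for Lck in term-diff cells, and -0.12 for Lck and -0.049 for Fyn in the average, and the interaction 0.022 for Lcp2, 0.029 for Vav1 and 0.0099 for Prkcq. Median-of-ratios scaling, which moved the median interaction of all genes by 0.11, gave interactions of 0.086 for Lck, 0.029 for Lat, 0.043 for Lcp2, 0.045 for Vav1 and 0.066 for Prkcq, and subset differences of -0.057 for Zap70 in wild type and -0.0052 for Plcg1 in the average. Without both wild-type libraries numbered 2, Plcg1 was at -0.021 in the averaged subset and 0.023 in the term-diff genotype comparison, and Zap70 at -0.0024 in the interaction.

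On leaving out 1 library, the Cd69-/- subset difference ran from -0.093 to 0.15 for Zap70, -0.17 to 0.28 for Lat and -0.064 to 0.18 for Vav1, and the wild-type one from -0.035 to 0.073 for Zap70. The averaged one ran from -0.037 to 0.086 for Zap70, -0.082 to 0.097 for Plcg1 and -0.010 to 0.22 for Lat. The genotype difference ran from -0.15 to 0.0086 for Zap70 in stem-like cells; in term-diff cells from -0.078 to 0.17 for Vav1, -0.32 to 0.034 for Plcg1, -0.034 to 0.20 for Lck and -0.18 to 0.062 for Zap70; and averaged from -0.038 to 0.14 for Plcg1. The interaction ran from -0.16 to 0.077 for Lck, -0.21 to 0.052 for Lcp2, -0.20 to 0.048 for Vav1, -0.19 to 0.076 for Prkcq, -0.11 to 0.13 for Zap70, -0.32 to 0.13 for Lat and -0.019 to 0.15 for Themis.

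With a pseudocount of 1, log2 ratios in Cd69-/- term-diff, Cd69-/- stem-like, wild-type term-diff and wild-type stem-like cells became 5.38, 5.42, 5.38 and 5.44 for Zap70 over Syk and 3.98, 4.22, 3.90 and 4.01 for Plcg1 over Plcg2, whose denominators lie under 1 FPKM. Prkcq over Prkch became -0.64 in wild-type stem-like cells. The intervals given for the genes that did not pass are ranges of differences compatible with the data, not limits of detection. With 2 libraries a group, not passing does not show that a gene was unchanged.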
